A study of Arabidopsis thaliana with 18 samples.

Results

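The 42 genes described here encode the phenylpropanoid, flavonoid and anthocyanin enzymes of Arabidopsis thaliana together with their main regulators, and they were followed in leaves kept in air or submerged. They were chosen by locus from knowledge of the pathway, with earlier results of these data also known, and are 42 of the 32833 genes in the deposited table. The list was therefore not blind to these data. All 42 loci were found there: 8 phenylpropanoid entry enzymes, 5 early flavonoid enzymes, 4 flavonol enzymes, 9 genes of the anthocyanin branch, 8 activators of the MYB, bHLH and TTG1 kind, 3 flavonol MYB factors and 5 repressors. Of these, 39 reached 1 TPM in 3 or more libraries and entered the test. PAL4, UGT78D3 and GL3 were below that level and are given as values only.

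Leaves of 4-week-old plants were sequenced in 18 libraries, 3 for each of 6 groups. Wild type, the phytochrome A mutant phyA-211 and the line ein3eil1, named for the ethylene-signalling transcription factors EIN3 and EIL1, were each kept on land or put under water for 6 h. All 18 libraries, in air and under water, are labelled mock, and the labels do not say what the mock treatment was. The labels do not give the ein3 and eil1 alleles, nor the origin of the replicates (single plants, pools or repeat extracts). The p-values therefore measure the spread between these libraries, which may be technical. Values are in TPM, transcript abundance scaled for transcript length and library total, so levels of different genes can be set side by side. In whole leaves, fewer cells of a type and less RNA per cell cannot be told apart.

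Phenylalanine enters the phenylpropanoid pathway through phenylalanine ammonia-lyase (PAL), cinnamate 4-hydroxylase (C4H) and 4-coumarate:CoA ligase (4CL), and the product is shared by lignin, sinapate esters and flavonoids. Chalcone synthase (CHS) opens the flavonoid route, which leads either to colourless flavonols, known as ultraviolet screens, or through dihydroflavonol reductase (DFR) to the red and purple anthocyanins stored in the vacuole. A complex of an R2R3-MYB such as PAP1, a bHLH such as TT8 and the WD-repeat protein TTG1 switches on the anthocyanin genes, while MYB11, MYB12 and MYB111 act on the flavonol genes without a bHLH partner. Light, sugar and low nitrogen are known to raise anthocyanin synthesis in leaves.

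The promoters of 5 enzymes are shown because each carries a G-box, the letters bound in general by bHLH or bZIP factors. Those of CHIL, DFR and SCPL10 also carry an AC-element, bound in general by MYB factors of this pathway, and those of CHS and UGT79B1 hold none in this window. Each sequence is the 250 bases before the annotated RefSeq start in TAIR10.1, written 5′ to 3′ on the strand of the gene, with G-boxes (CACGTG) and AC-elements (ACCNACC, on either strand) in capitals.
CHS, chr5:4488226-4488475, plus strand: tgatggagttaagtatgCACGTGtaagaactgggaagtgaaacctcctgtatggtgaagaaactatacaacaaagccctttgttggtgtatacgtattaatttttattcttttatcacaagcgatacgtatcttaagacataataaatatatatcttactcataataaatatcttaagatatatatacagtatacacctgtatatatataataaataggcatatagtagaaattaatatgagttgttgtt
CHIL, chr5:1563036-1563285, plus strand: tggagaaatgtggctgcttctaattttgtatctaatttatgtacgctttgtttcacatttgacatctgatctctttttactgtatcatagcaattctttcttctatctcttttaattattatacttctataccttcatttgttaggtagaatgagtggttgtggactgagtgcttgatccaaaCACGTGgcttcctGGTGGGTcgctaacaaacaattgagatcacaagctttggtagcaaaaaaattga
DFR, chr5:17166033-17166282, minus strand: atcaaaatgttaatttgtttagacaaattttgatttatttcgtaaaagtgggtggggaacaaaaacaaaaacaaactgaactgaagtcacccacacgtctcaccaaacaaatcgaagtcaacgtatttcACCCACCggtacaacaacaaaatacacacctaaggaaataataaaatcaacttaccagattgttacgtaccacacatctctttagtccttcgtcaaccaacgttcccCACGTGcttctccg
UGT79B1, chr5:21938397-21938646, minus strand: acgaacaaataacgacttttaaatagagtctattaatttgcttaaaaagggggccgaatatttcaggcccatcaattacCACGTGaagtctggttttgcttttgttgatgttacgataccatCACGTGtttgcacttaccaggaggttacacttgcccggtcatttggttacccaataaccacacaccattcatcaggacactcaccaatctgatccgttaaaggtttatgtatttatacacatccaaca
SCPL10, chr2:9791916-9792165, plus strand: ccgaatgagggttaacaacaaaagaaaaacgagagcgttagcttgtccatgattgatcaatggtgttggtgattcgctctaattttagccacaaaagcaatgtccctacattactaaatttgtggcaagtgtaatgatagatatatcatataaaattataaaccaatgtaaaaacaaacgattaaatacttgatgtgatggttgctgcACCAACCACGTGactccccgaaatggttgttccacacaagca
In SCPL10 the AC-element and the G-box overlap by their shared letters, and in UGT79B1 a G-box begins at position -171 and again at position -128, counted from the start. A G-box was present in 10 of the 42 promoters (23.8%), against 1780 of 27443 promoters of protein-coding genes (6.49%). An AC-element was also present in 10 of 42 (23.8%), against 6.1% of all promoters. The wider E-box (CANNTG, which includes every G-box) was present in 25 of 42 (59.5%), against 55.3% of all. Among the 5 early flavonoid enzymes 3 held a G-box, and among the 9 genes of the anthocyanin branch 3 held a G-box and 4 an AC-element. These matches are a description of the letters in this window, and no binding was measured.

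Libraries were first compared with their labels. PHYA stood in air at 1.2, 1.2 and 1.83 TPM in phyA-211, at 13.2, 11.1 and 10.8 TPM in wild type and at 20.6, 16.3 and 15.7 TPM in ein3eil1. The phyA-211 air libraries therefore stood below the other air libraries. Under water PHYA averaged 22.94 TPM (wild type), 10.29 TPM (phyA-211) and 16.3 TPM (ein3eil1), a narrower split than in air. EIN3 was at 61.99, 55.9 and 61.3 TPM (wild type), 37.6, 63.5 and 55.8 TPM (phyA-211) and 26.9, 27.3 and 28.3 TPM (ein3eil1) in air. Submerged EIN3 averaged 54.46 TPM (wild type), 115 TPM (phyA-211) and 44.47 TPM (ein3eil1), so ein3eil1 was closer to wild type than in air. EIL1 averaged 41 TPM in wild type and 16.56 TPM in ein3eil1 in air. Under water EIL1 stood at 66.4, 65.3 and 69.5 TPM in wild type against 11.6, 6.9 and 12.5 TPM in ein3eil1. The anaerobic marker ADH1 rose under submergence in every line, with log2 fold changes from 6.62 to 8.40. Submerged phyA-211 had the widest replicate spread, with a median standard deviation over genes of 0.36 on the log2 scale against 0.10 to 0.27 in the other groups, and its replicate 1 correlated with the other two at 0.932 and 0.918. Summed levels of 4 mesophyll markers (RBCS1A, CAB2, CAB3 and RCA) were 28243, 25926 and 26348 TPM (wild type), 15836, 30483 and 25766 TPM (phyA-211) and 16060.0, 16066 and 16955 TPM (ein3eil1) in air. Under water they were 16418, 15584 and 17297 TPM (wild type), 6741, 7181 and 8066 TPM (phyA-211) and 12629, 6068 and 9521 TPM (ein3eil1), and 3, 4 and 3 of the 4 fell in the same order of lines. Seed markers summed to at most 3.12 TPM in any library.

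Submergence for 6 h lowered most of the pathway in all 3 lines. In wild type 30 of the 39 members tested fell and 2 rose, where 38% of all genes tested fell and 18.9% rose. In phyA-211, 32 fell and 2 rose, against a background of 23.9% lower and 27.3% higher, and in ein3eil1, 36 fell and 3 rose, against 47.3% lower and 17% higher. The median log2 fold change of the members was -2.54 in wild type, -2.28 in phyA-211 and -2.52 in ein3eil1, beside medians over all genes tested of -0.32, 0.07 and -0.48. These fold changes are differences of log2(TPM + 1), tested with limma at a Benjamini-Hochberg adjusted p under 0.05 over all 20302 genes. With each library centred on its median gene, the number that rose in wild type was 4 instead of 2, the added genes being MYBL2 and LBD39. Small nuclear RNA genes held 0.0281 to 0.0553% of TPM in wild type in air and 0.51 to 0.592% under water, 0.0277 to 0.0375% and 0.433 to 0.533% in ein3eil1, and 0.731 to 2.04% and 0.329 to 1.85% in phyA-211, where the ranges overlap. Epidermal markers, 6 genes of which 3 of 5 tested fell in wild type, summed to 548, 494 and 450.4 TPM in air and 127, 129 and 126 TPM under water. The part of these shifts in the falls was not tested.

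**Figure D1:**
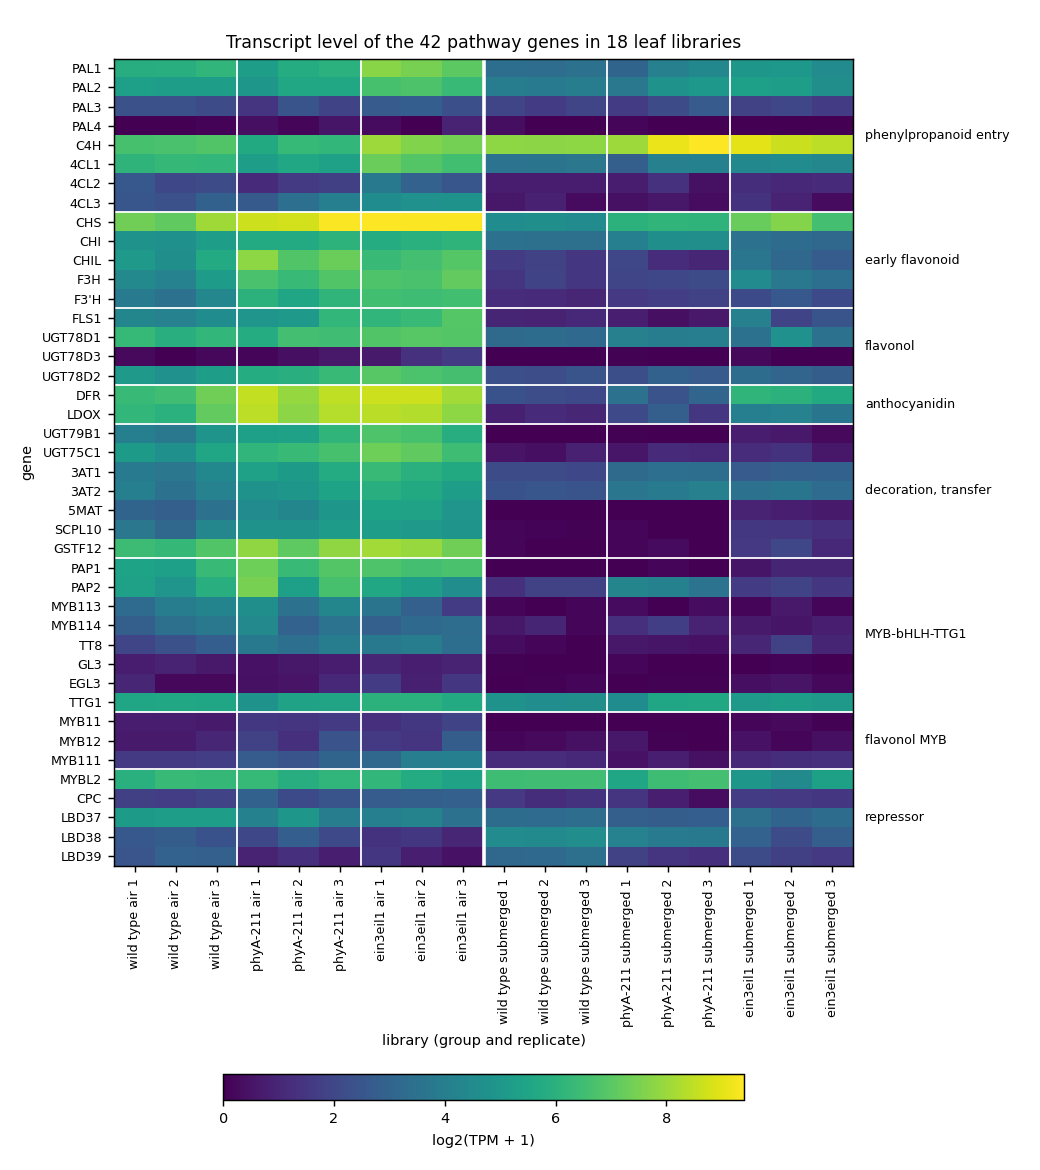
Level of each of the 42 genes, as log2(TPM + 1) on the colour scale, in each of the 18 libraries, with genes ordered by role and libraries by group. The columns on the left are air and those on the right are submerged; most rows are brighter on the left, and the C4H and LBD38 rows are brighter on the right.

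Of the 7 entry enzymes tested 5 fell in wild type, 4 in phyA-211 and 6 in ein3eil1, and C4H (AT2G30490) rose in each line. PAL1 (AT2G37040), which takes the amino group from phenylalanine, was at 56.4, 58.1 and 71.3 TPM (wild type), 37.1, 55.4 and 62.7 TPM (phyA-211) and 212, 177 and 131 TPM (ein3eil1) in air. Under water PAL1 was at 9.42, 9.19 and 10.3 TPM (wild type), 7.25, 16.2 and 19.9 TPM (phyA-211) and 30.7, 31.1 and 22.1 TPM (ein3eil1), below every air library of the same line. Its log2 fold change was -2.56 ± 0.29 (standard error) in wild type with limma adjusted p = 2.43e-06, -1.84 in phyA-211 and -2.58 in ein3eil1. PAL2 (AT3G53260), which shares 84% of aligned coding bases with PAL1, fell in each line (-1.35, -0.90 and -1.52 in the same order), as did 4CL1 (AT1G51680) (-2.54, -1.71 and -2.48). The call for PAL2 in phyA-211 was lost with the compared groups alone, without phyA-211 air replicate 3 or without submerged replicate 1. 4CL2 (AT3G21240) fell in wild type (-1.53) and ein3eil1 (-1.95), and its change of -0.67 in phyA-211 did not pass. PAL3 (AT5G04230) fell in ein3eil1 (-0.78), a call lost after median centring or quantile normalization and without ein3eil1 air replicate 1 or 2 or submerged replicate 3. Its values were -0.40 and 0.25 in the other lines. PAL4 (AT3G10340) stayed below 1 TPM in all 18 libraries.

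4CL3 (AT1G65060), the 4CL isoform known to serve flavonoid synthesis, was at 4.74, 4.03 and 6.56 TPM (wild type), 5.38, 9.92 and 15.9 TPM (phyA-211) and 22.6, 26.2 and 27.3 TPM (ein3eil1) in air. It was higher in the air libraries of ein3eil1 than in any of wild type. Under water it was at 0.52, 0.8 and 0.2 TPM (wild type), 0.35, 0.51 and 0.23 TPM (phyA-211) and 1.62, 0.86 and 0.21 TPM (ein3eil1), and its log2 fold change was -2.02 ± 0.32, -2.96 ± 0.32 and -3.86 ± 0.32 in wild type, phyA-211 and ein3eil1.

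C4H, the cytochrome P450 that hydroxylates cinnamate between the PAL and 4CL steps, moved the other way. In air C4H was at 100.4, 102 and 114 TPM (wild type), 51.6, 77.8 and 73.4 TPM (phyA-211) and 260.1, 193 and 174 TPM (ein3eil1). Under water it reached 223, 215 and 225 TPM (wild type), 259, 560.1 and 669.9 TPM (phyA-211) and 518, 403 and 356 TPM (ein3eil1), so every submerged library stood above every air library of its line. Its log2 fold change was 1.06 ± 0.28 in wild type (limma adjusted p = 0.00422), 2.77 ± 0.28 in phyA-211 (adjusted p = 5.7e-07) and 1.02 ± 0.28 in ein3eil1 (adjusted p = 0.00451). The rise in phyA-211 exceeded that in wild type by 1.71 ± 0.39 (adjusted p = 0.0136), and submerged phyA-211 replicate 1 lay well below replicates 2 and 3.

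The early flavonoid enzymes fell in every line, 5 of 5 each time. CHS (AT5G13930), which condenses coumaroyl-CoA with malonyl-CoA, was at 162, 136 and 264 TPM (wild type), 407, 430.1 and 656 TPM (phyA-211) and 676, 655 and 653 TPM (ein3eil1) in air. Under water CHS was at 22.96, 24.5 and 22.4 TPM (wild type), 64.4, 69.9 and 68.8 TPM (phyA-211) and 147, 199.9 and 95.1 TPM (ein3eil1). Even the lowest air library of each line was above its highest submerged library, and the submerged mutants remained above submerged wild type. The log2 fold change was -2.90 ± 0.26, -2.83 ± 0.26 and -2.22 ± 0.26 in wild type, phyA-211 and ein3eil1, and in wild type the limma adjusted p was 1.81e-07.

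Chalcone isomerase (CHI, AT3G55120), which closes the flavanone ring, was at 26.99, 25.6 and 37.5 TPM (wild type), 52.8, 52.97 and 67.2 TPM (phyA-211) and 55.8, 62.1 and 68.4 TPM (ein3eil1) in air. Submerged CHI was at 10.8, 10.2 and 10.2 TPM (wild type), 15.9, 24.4 and 24.2 TPM (phyA-211) and 10.5, 8.89 and 7.93 TPM (ein3eil1). It was the least lowered of the early enzymes in wild type (-1.43 ± 0.18) and phyA-211 (-1.40 ± 0.18), and it fell further in ein3eil1 (-2.65 ± 0.18, adjusted p = 0.00254 for the difference from wild type). CHIL (AT5G05270), a non-catalytic isomerase-like protein that helps CHS, was at 225, 114 and 157 TPM in phyA-211 in air and 3.02, 1.29 and 1 TPM under water. That fall (-5.92 ± 0.33) was larger than the falls in wild type (-3.50 ± 0.33) and ein3eil1 (-3.41 ± 0.33), with adjusted p = 0.0065 and 0.000918 for the differences.

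Flavanone 3-hydroxylase (F3H, AT3G51240) makes dihydroflavonols and was at 20.4, 17.04 and 35.4 TPM (wild type), 104, 81.2 and 116 TPM (phyA-211) and 110.4, 104 and 139 TPM (ein3eil1) in air. Submerged F3H was at 1.69, 2.83 and 1.78 TPM (wild type), 2.95, 3.02 and 3.44 TPM (phyA-211) and 22.1, 12.7 and 9.9 TPM (ein3eil1). In submerged ein3eil1 it stayed above all 6 submerged libraries of the other lines. F3'H (AT5G07990), which adds the second hydroxyl of the B ring, was at 13.1, 10.8 and 19.3 TPM (wild type), 65.4, 46.4 and 70.3 TPM (phyA-211) and 92.8, 88.7 and 92.9 TPM (ein3eil1) in air and 1.31, 1.21 and 1.03 TPM (wild type), 1.95, 2.29 and 2.59 TPM (phyA-211) and 3.35, 5.02 and 3.31 TPM (ein3eil1) under water. Both enzymes fell further in phyA-211 (log2 -4.60 and -4.22) than in wild type (-2.98 and -2.78), with adjusted p = 0.0162 and 0.00728 for the differences.

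The flavonol enzymes fell as well, 3 of 3 tested in each line. Flavonol synthase FLS1 (AT5G08640) was at 18.7, 17.03 and 22.8 TPM (wild type), 28.8, 33.3 and 74.1 TPM (phyA-211) and 72.7, 82.3 and 122 TPM (ein3eil1) in air. Submerged FLS1 was at 0.94, 0.93 and 1.11 TPM (wild type), 0.74, 0.32 and 0.57 TPM (phyA-211) and 16.02, 2.77 and 4.38 TPM (ein3eil1), where ein3eil1 replicate 1 stood far above replicates 2 and 3. Log2 fold changes were -3.35 ± 0.43, -4.79 ± 0.43 and -3.70 ± 0.43 in wild type, phyA-211 and ein3eil1. UGT78D1 (AT1G30530), a flavonol rhamnosyltransferase, was at 78.4, 59.8 and 73.3 TPM (wild type), 55.8, 96.1 and 91.9 TPM (phyA-211) and 114, 122 and 119 TPM (ein3eil1) in air. It dropped to 8.43, 8.93 and 8.29 TPM (wild type), 16.2, 14.99 and 15.2 TPM (phyA-211) and 10.3, 26.3 and 10.8 TPM (ein3eil1) under water, with no overlap in any line. UGT78D2 (AT5G17050), the flavonoid glucosyltransferase that serves flavonols and anthocyanins alike, was at 33.02, 25.7 and 37.5 TPM (wild type), 55.1, 60.2 and 80.2 TPM (phyA-211) and 122, 105 and 97.1 TPM (ein3eil1) in air. Submerged UGT78D2 was at 3.89, 3.72 and 4.49 TPM (wild type), 3.73, 6.54 and 5.55 TPM (phyA-211) and 9.05, 7.48 and 5.92 TPM (ein3eil1). The third copy, UGT78D3 (AT5G17030), was above 1 TPM only in ein3eil1 in air, at 0.59, 1.56 and 2.16 TPM.

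All 9 genes of the anthocyanin branch fell in each line. Their summed level was 337, 304 and 558 TPM in wild type in air, 1178, 823 and 1254 TPM in phyA-211 and 1513, 1399 and 948 TPM in ein3eil1. Under water the sums were 13.1, 13.5 and 12.7 TPM, 35.1, 35.9 and 35.8 TPM and 108, 108 and 81.8 TPM. In both conditions the 3 wild-type sums lay below the 6 of the mutants. In submerged phyA-211, 3AT2 and 3AT1 averaged 14.01 and 9.22 TPM of a mean sum of 35.6 TPM. There 4 of the 9 genes passed as higher than in submerged wild type, with a median log2 difference of 0.33 beside 0.29 over all genes. Within wild type in air, replicate 3 held the highest value for 9 of these 9 genes and for 28 of the 39 members tested.

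DFR (AT5G42800), which commits dihydroflavonols to anthocyanin, was at 79.01, 89.9 and 162 TPM (wild type), 367, 243 and 363 TPM (phyA-211) and 408, 411 and 273 TPM (ein3eil1) in air. Under water DFR was at 4.13, 3.69 and 3.2 TPM (wild type), 10.8, 4.35 and 7.43 TPM (phyA-211) and 70.01, 65.2 and 50.8 TPM (ein3eil1). Submerged ein3eil1 kept DFR levels below but near the lowest wild-type library in air, while the other lines dropped to a few TPM. The log2 fold change was -4.51 ± 0.30 in wild type, -5.30 ± 0.30 in phyA-211 and -2.52 ± 0.30 in ein3eil1. LDOX (AT4G22880), which oxidizes leucoanthocyanidins to coloured anthocyanidins, was at 0.79, 1.18 and 1.01 TPM (wild type), 3.22, 6.2 and 1.79 TPM (phyA-211) and 15.7, 16.97 and 11.8 TPM (ein3eil1) under water. No line overlapped with its air libraries, whose lowest LDOX value was 62.9 TPM in wild type replicate 2.

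GSTF12 (AT5G17220), the glutathione transferase that carries anthocyanins towards the vacuole, was at 85.96, 76.2 and 114 TPM (wild type), 226, 132 and 229.5 TPM (phyA-211) and 273, 244 and 163 TPM (ein3eil1) in air. Submerged GSTF12 was at 0.1, 0 and 0 TPM (wild type), 0.1, 0.21 and 0 TPM (phyA-211) and 1.92, 3.04 and 1.09 TPM (ein3eil1). The log2 fold changes of -6.47 ± 0.26, -7.44 ± 0.26 and -6.26 ± 0.26 are limited by the added 1 TPM, since the submerged levels are close to 0. UGT75C1 (AT4G14090), the anthocyanin 5-O-glucosyltransferase, was at 33.95, 25.4 and 45.9 TPM (wild type), 71.5, 79.3 and 101 TPM (phyA-211) and 158, 137 and 89.5 TPM (ein3eil1) in air. Under water it was at 0.42, 0.32 and 0.84 TPM (wild type), 0.49, 1.19 and 1.08 TPM (phyA-211) and 1.31, 1.6 and 0.52 TPM (ein3eil1), near 0 in each line.

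The remaining decorating enzymes followed. UGT79B1 (AT5G54060), which adds xylose to anthocyanin glucosides, was at 15.8, 12.6 and 28.1 TPM (wild type), 39.01, 40.2 and 70.2 TPM (phyA-211) and 112, 102 and 56.5 TPM (ein3eil1) in air. It was listed at 0 in all 3 submerged wild-type libraries, and was at 0.03, 0 and 0 TPM in phyA-211 and 0.69, 0.57 and 0.19 TPM in ein3eil1. The malonyltransferase 5MAT (AT3G29590) was at 7.2, 6.28 and 10.2 TPM (wild type), 22.2, 18.9 and 30.4 TPM (phyA-211) and 42.9, 41.7 and 28.9 TPM (ein3eil1) in air. It was listed at 0 in all 6 submerged libraries of wild type and phyA-211, and was at 0.9, 0.75 and 0.62 TPM in ein3eil1. Both genes passed in wild type, with limma adjusted p = 1.45e-08 and 5.79e-09, and no fold is given against groups listed at 0. SCPL10 (AT2G23000), a sinapoylglucose-dependent acyltransferase, fell in wild type (-3.67), phyA-211 (-4.88) and ein3eil1 (-3.61). Its mean went from 13.26 to 0.063 TPM (wild type), 29.73 to 0.04 TPM (phyA-211) and 32 to 1.7 TPM (ein3eil1). The values for wild type and phyA-211 are limited by the added 1 TPM, so similar log2 values do not mean similar falls. The coumaroyltransferases 3AT1 (AT1G03940) (-1.87) and 3AT2 (AT1G03495) (-1.48) were the least lowered of the branch in wild type. They share 97.6% of aligned coding bases, so the division of reads between them is uncertain.

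**Figure D2:**
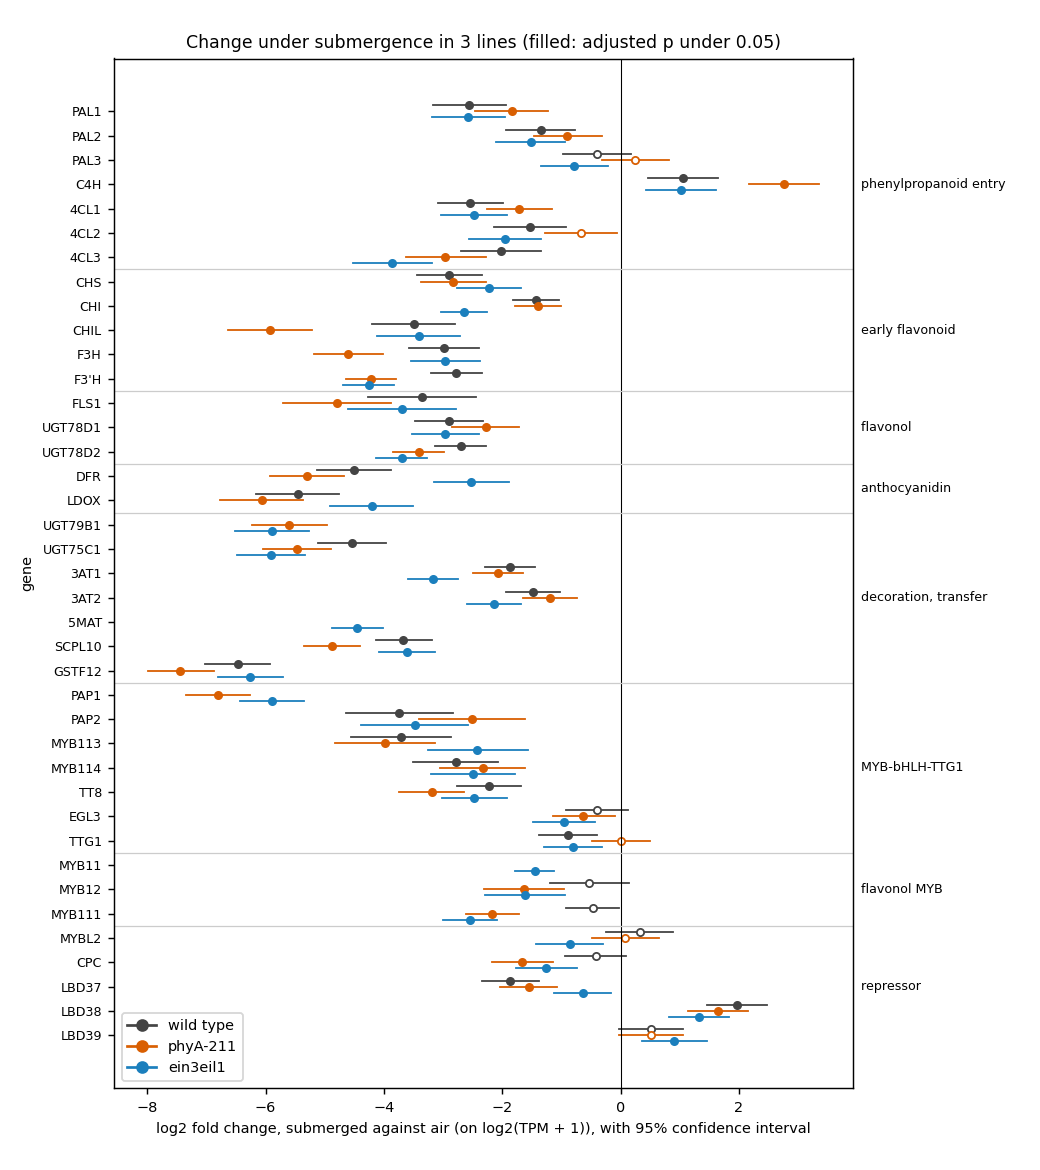
Log2 fold change of each tested gene, submerged against air, with its 95% confidence interval from limma, in wild type (grey), phyA-211 (orange) and ein3eil1 (blue), with genes grouped by role. Genes listed at 0 in all libraries of a compared group are left out for that line; GSTF12 and PAP1 (AT1G56650) in phyA-211 lie furthest left, and C4H and LBD38 (AT3G49940) lie right of 0 in each line.

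Among the activators, 6 of 7 tested fell in wild type and phyA-211 and 7 of 7 in ein3eil1. PAP1, the main leaf anthocyanin MYB, was at 42.99, 38.1 and 79.2 TPM (wild type), 161, 80.5 and 116 TPM (phyA-211) and 111, 96.2 and 103 TPM (ein3eil1) in air. Under water it was listed at 0 in wild type, and was at 0, 0.09 and 0 TPM in phyA-211 and 0.44, 0.96 and 0.94 TPM in ein3eil1. Its fall passed in each line, with adjusted p = 1.93e-10 in wild type, and its log2 fold change was -6.81 ± 0.25 in phyA-211 and -5.89 ± 0.25 in ein3eil1.

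PAP2 (AT1G66390), the close relative of PAP1, was at 40.5, 29.1 and 58.9 TPM (wild type), 179, 39.1 and 102 TPM (phyA-211) and 48.2, 38.02 and 23.7 TPM (ein3eil1) in air. Submerged PAP2 was at 1.44, 2.55 and 2.61 TPM (wild type), 18.3, 16.4 and 10.99 TPM (phyA-211) and 2.21, 2.84 and 1.78 TPM (ein3eil1). All 3 submerged phyA-211 libraries were higher than the other 6 submerged libraries, although PAP1 was at or near 0 in them. MYB113 (AT1G66370) and MYB114 (AT1G66380), from the same chromosome cluster, fell in every line, MYB113 with log2 fold changes of -3.72, -3.98 and -2.42 and MYB114 with -2.79, -2.33 and -2.50. PAP2 and MYB114 share 91.4% of aligned coding bases, so reads could be divided between them in part.

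TT8 (AT4G09820), the bHLH partner induced by the complex itself, was at 2.94, 3.99 and 6.09 TPM (wild type), 12.9, 9.88 and 14.6 TPM (phyA-211) and 13.1, 14.9 and 9.48 TPM (ein3eil1) in air. It went to 0.24, 0.1 and 0 TPM (wild type), 0.51, 0.46 and 0.39 TPM (phyA-211) and 0.99, 2.58 and 0.94 TPM (ein3eil1) under water. Its log2 fold change was -2.23 ± 0.26, -3.19 ± 0.26 and -2.47 ± 0.26. These values are limited by the added 1 TPM, so their order does not give the order of the falls. The other bHLH genes were low throughout, with EGL3 (AT1G63650) at 1, 0.14 and 0.14 TPM (wild type), 0.35, 0.41 and 1.13 TPM (phyA-211) and 2.09, 0.78 and 1.79 TPM (ein3eil1) in air. Submerged EGL3 was at 0.02, 0.03 and 0.08 TPM (wild type), 0.02, 0.03 and 0.05 TPM (phyA-211) and 0.3, 0.4 and 0.16 TPM (ein3eil1). It fell in phyA-211 (-0.63, adjusted p = 0.0462), a call lost under 8 alternatives including a replicate block and quantile normalization, and in ein3eil1 (-0.95), lost after median centring. Its value of -0.40 in wild type did not pass. GL3 (AT5G41315) was at 0.64, 0.85 and 0.58 TPM (wild type), 0.37, 0.53 and 0.68 TPM (phyA-211) and 1.02, 0.73 and 0.86 TPM (ein3eil1) in air and at most 0.09 TPM under water. TTG1 (AT5G24520), the WD-repeat scaffold, was at 46.5, 47.8 and 45.3 TPM (wild type), 26.9, 41.6 and 43.7 TPM (phyA-211) and 65.2, 63.6 and 52.3 TPM (ein3eil1) in air. Submerged TTG1 was at 26.5, 23.4 and 24.2 TPM (wild type), 22.6, 44.8 and 48.7 TPM (phyA-211) and 32.6, 36.7 and 33.4 TPM (ein3eil1). It fell in wild type (-0.89) and in ein3eil1 (-0.80, a call lost after median centring), and its change in phyA-211 was 0.00 (95% interval -0.49 to 0.50), with submerged replicate 1 below replicates 2 and 3.

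**Figure D3:**
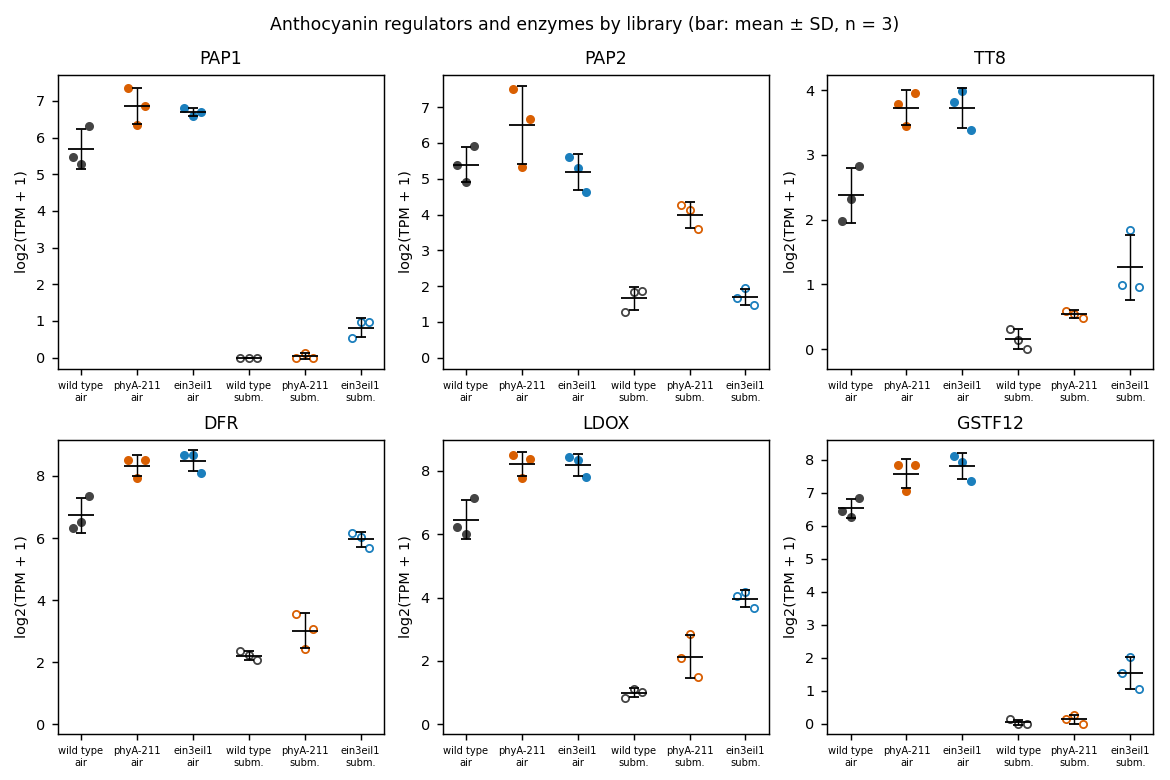
Log2(TPM + 1) of the regulators PAP1, PAP2 and TT8 and of the anthocyanin genes DFR, LDOX and GSTF12 in every library, with filled points in air, open points under water, and bars for the mean and SD of 3 libraries. Among the submerged groups DFR and LDOX are highest in ein3eil1, and PAP2 is highest in phyA-211.

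The flavonol MYB genes were expressed at low level. MYB11 (AT3G62610) was at 0.69, 0.64 and 0.61 TPM (wild type), 1.9, 1.67 and 2.01 TPM (phyA-211) and 1.48, 1.9 and 2.83 TPM (ein3eil1) in air and was listed at 0 in submerged wild type and phyA-211, with 0.1, 0.19 and 0.03 TPM in submerged ein3eil1. MYB12 (AT2G47460) was at 0.62, 0.62 and 0.99 TPM (wild type), 2.53, 1.48 and 4.3 TPM (phyA-211) and 2.06, 1.72 and 5.88 TPM (ein3eil1) in air. Submerged MYB12 was at 0.1, 0.17 and 0.35 TPM (wild type), 0.51, 0.04 and 0 TPM (phyA-211) and 0.36, 0.12 and 0.32 TPM (ein3eil1). It fell in phyA-211 (-1.63 ± 0.32) and ein3eil1 (-1.61 ± 0.32), and its value of -0.53 in wild type did not pass. MYB111 (AT5G49330) was at 2.05, 1.99 and 2.26 TPM (wild type), 5.6, 4.37 and 7.14 TPM (phyA-211) and 8.08, 15.2 and 15.5 TPM (ein3eil1) in air, higher in every mutant library than in any of wild type. Under water it was at 1.27, 1.3 and 1.13 TPM (wild type), 0.37, 0.75 and 0.33 TPM (phyA-211) and 1.12, 1.35 and 1.48 TPM (ein3eil1). Its log2 fold change was -0.47 in wild type, which did not pass, -2.17 ± 0.22 in phyA-211 and -2.54 ± 0.22 in ein3eil1, and the mutant responses differed from that of wild type (adjusted p = 0.00436 and 0.000167).

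Repressors moved in different directions. MYBL2 (AT1G71030), a small MYB that displaces activators from the complex, was at 61.3, 79.3 and 75.8 TPM (wild type), 77.6, 57.1 and 72.7 TPM (phyA-211) and 73.1, 53.96 and 41.5 TPM (ein3eil1) in air. Submerged MYBL2 was at 88.5, 91.8 and 90.4 TPM (wild type), 46.1, 87.7 and 94.5 TPM (phyA-211) and 30.5, 21.7 and 39.1 TPM (ein3eil1). It fell in ein3eil1 (-0.86 ± 0.27, adjusted p = 0.01), a call lost after median centring (-0.33) and without ein3eil1 air replicate 1 or submerged replicate 2. In wild type its change was 0.33 ± 0.27 and did not pass. CPC (AT2G46410), another small MYB, was at 2.47, 2.3 and 2.81 TPM (wild type), 6.66, 3.31 and 4.41 TPM (phyA-211) and 5.67, 6.21 and 6.43 TPM (ein3eil1) in air. Submerged CPC was at 1.96, 1.34 and 1.63 TPM (wild type), 1.69, 0.71 and 0.24 TPM (phyA-211) and 2.14, 1.98 and 1.79 TPM (ein3eil1), and it fell in phyA-211 (-1.66) and ein3eil1 (-1.26), the latter not after median centring.

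The nitrogen-responsive factors LBD37 (AT5G67420), LBD38 and LBD39 (AT4G37540), known to repress PAP1 and PAP2, split. LBD37 was at 34.2, 36.4 and 36.5 TPM (wild type), 16.7, 30.3 and 14.6 TPM (phyA-211) and 15.8, 17.3 and 10.2 TPM (ein3eil1) in air and 9.11, 8.7 and 9.38 TPM (wild type), 6.16, 5.82 and 6.09 TPM (phyA-211) and 10.2, 7.13 and 8.99 TPM (ein3eil1) under water. It fell in wild type (-1.87), phyA-211 (-1.55) and ein3eil1 (-0.64), and the last call was lost after median centring or quantile normalization and without ein3eil1 air replicate 1 or 2 or submerged replicate 2. LBD38 was at 4.96, 5.85 and 4.2 TPM (wild type), 3.06, 6.07 and 3.23 TPM (phyA-211) and 1.6, 1.89 and 1.03 TPM (ein3eil1) in air. Under water it was at 22.01, 21.4 and 23.7 TPM (wild type), 16.8, 14.1 and 12.98 TPM (phyA-211) and 6.69, 3.38 and 6.14 TPM (ein3eil1), above every air library of the same line. It rose by 1.97 ± 0.24 in wild type (adjusted p = 5.26e-06), 1.65 ± 0.24 in phyA-211 and 1.33 ± 0.24 in ein3eil1. LBD39 was at 4.51, 6.82 and 6.37 TPM (wild type), 0.86, 1.47 and 0.72 TPM (phyA-211) and 1.77, 0.75 and 0.38 TPM (ein3eil1) in air. Submerged LBD39 was at 7.97, 8.2 and 10.2 TPM (wild type), 2.61, 1.66 and 1.42 TPM (phyA-211) and 3.4, 2.41 and 1.98 TPM (ein3eil1). It rose in ein3eil1 (0.91 ± 0.25), while 0.52 in wild type and 0.52 in phyA-211 did not pass.

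**Figure D4:**
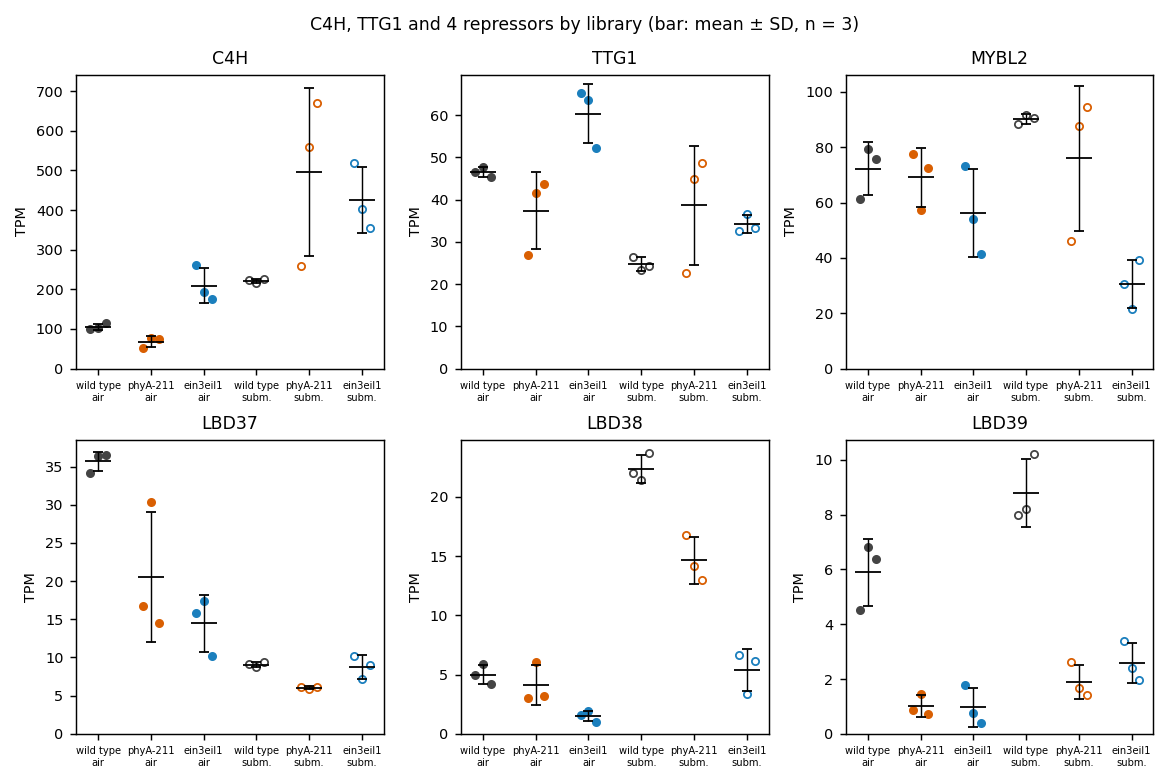
TPM of C4H, TTG1, MYBL2, LBD37, LBD38 and LBD39 in every library, with filled points in air, open points under water, and bars for the mean and SD of 3 libraries. C4H and LBD38 are higher under water in each line, and LBD39 is lower in the mutants than in wild type in both conditions.

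Other genes around the pathway were read from a list of 48 loci, of which 41 were tested. In wild type 25 fell and 5 rose, in phyA-211 20 fell and 10 rose, and in ein3eil1 24 fell and 8 rose. Over all genes tested 38% fell and 18.9% rose in wild type, 23.9% and 27.3% in phyA-211, and 47.3% and 17% in ein3eil1. The median log2 fold changes of the list were -0.87, -0.58 and -1.10, beside -0.32, 0.07 and -0.48 over all genes. Of 10 lignin genes 8 fell and 0 rose in wild type, 4 fell and 2 rose in phyA-211, and 8 fell and 1 rose in ein3eil1, with medians of -1.73, -0.56 and -1.79. CAD5 and CAD4, which make monolignols, fell in wild type (-2.71 and -2.69), while CAD5 was at -0.80 in phyA-211 and did not pass. C3'H (1.18) and CSE (1.02), which act on the way to monolignols, were the 2 that rose in phyA-211. All of HCT, F5H, CCoAOMT1 and CAD4 fell in every line. 4CL5 fell in wild type (-1.53 ± 0.41) and rose in ein3eil1 (1.94 ± 0.41), where it reached 49.5, 118 and 48.8 TPM under water. UGT89C1, a flavonol rhamnosyltransferase, fell in each line (-3.91, -3.49 and -3.12). UGT84A2, which makes sinapoylglucose, fell in each line (-2.72, -3.15 and -2.80). UGT73C6, a flavonol glucosyltransferase, was at 210.3, 106 and 129 TPM in submerged ein3eil1 and 3.04, 2.97 and 2.1 TPM in submerged wild type.

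Kelch-repeat F-box proteins lead PAL enzymes to degradation, and of the 4 listed KFB01, KFB20 and KFB39 rose in each line. Over all genes tested 18.9% rose in wild type, 27.3% in phyA-211 and 17% in ein3eil1. KFB01 was at 19.6, 20.3 and 23.3 TPM in wild type in air and 89.7, 88.8 and 98.1 TPM under water, with a log2 fold change of 2.08 ± 0.33, and KFB20 and KFB39 had 1.28 and 2.20 in wild type. KFB50 rose in phyA-211 (1.45), and its values of 0.11 and -0.40 in wild type and ein3eil1 did not pass. KFB-CHS, which does the same for CHS, rose in wild type (1.01 ± 0.22) and phyA-211 (2.34 ± 0.22), and its change in ein3eil1 was 0.32. Of 10 light regulators 6 fell and 1 rose in wild type, 7 fell and 2 rose in phyA-211, and 6 fell and 2 rose in ein3eil1, where the shares of all genes that fell were 38%, 23.9% and 47.3%. HY5, the bZIP that binds G-boxes of CHS and other genes, fell in phyA-211 (-1.75 ± 0.49) and ein3eil1 (-1.28 ± 0.49), and its wild-type change of 0.61 did not pass. TRY (-3.04 in wild type) and SPL9 (-1.52), from a list of 7 further repressors, fell in every line. Seed-coat genes of the proanthocyanidin branch were near 0, and 2 of 8 were tested.

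In air the pathway was higher in phyA-211 than in wild type. Of the 39 members tested 19 were higher and 1 lower, against 1.63% higher and 2.38% lower over all genes, and the median difference was 1.00 on the log2 scale beside -0.04. All 5 early enzymes passed as higher, CHIL by 2.17 ± 0.33 and F3H by 2.05 ± 0.28 (adjusted p = 0.00189 and 0.000664). All 9 genes of the anthocyanin branch passed as higher, from 1.06 for GSTF12 to 1.75 for LDOX. PAP1, TT8, MYB11, MYB111 and UGT78D2 were also higher. None of the 7 entry enzymes tested passed, and LBD39 was the member that was lower (-1.78 ± 0.25). Without phyA-211 air replicate 3 the number higher was 12, without phyA-211 air replicate 2 the number lower was 2, and 9 of the 20 calls held under every alternative run. Of the other 11, the call for GSTF12 was lost under 7 alternatives including a replicate block and a pseudocount of 0.1 TPM, with adjusted p up to 0.218. PAP1 was lost under 6, UGT79B1 under 5, UGT75C1 under 3, and CHI, MYB11 and UGT78D2 under 2 each. CHS, SCPL10, TT8 and MYB111 were lost under 1 each. The AP3, AG and PI flower markers summed to 0.88, 0.89 and 20.4 TPM in the mutant air libraries, the last being replicate 3, where wild type in air had 3.72, 1.3 and 2.28 TPM. Small nuclear RNA genes held 0.731 to 2.04% of the total in these mutant libraries against 0.0281 to 0.0553% in wild type. The part of either in these differences was not tested.

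The line ein3eil1 was also higher in air. There 29 members were higher and 4 lower, against 25.6% and 2.73% of all genes, and the median difference was 1.28 beside 0.37. With median centring the number higher was 19. All 17 flavonoid enzymes and transport genes tested passed as higher, led by F3'H (2.62 ± 0.20, adjusted p = 2.48e-06) and F3H (2.29 ± 0.28). UGT78D1 (0.75, adjusted p = 0.0488) was lost under 11 alternatives, with a replicate block and leaving out each air library of either line among them, and CHIL and GSTF12 were lost after median centring. Entry enzymes were included, PAL1 by 1.45 ± 0.29 and 4CL3 by 2.13 ± 0.32. The calls for 4CL2 and C4H were lost under 10 and 5 alternatives. The 4 lower members were MYB113 (-1.12 ± 0.40), LBD37 (-1.28 ± 0.23), LBD38 (-1.27 ± 0.24) and LBD39 (-1.86 ± 0.25), and the MYB113 call was lost under 8 alternatives. Among the higher regulators EGL3 was lost under 7, MYB12 under 5, and PAP1 and MYB11 under 2 each. Of all 33 calls, 22 held under every alternative run. The repressor CPC was higher (1.01 ± 0.24, limma adjusted p = 0.00911), a call lost under 2 alternatives. Of the 7 further repressors outside the members 4 were higher and 0 lower. PAP2 differed by -0.22 and did not pass. Of 5 epidermal markers tested of 6 in the list, GL2 and PDF1 were higher and CER6 lower, and the summed epidermal level was 607, 473 and 438 TPM against 548, 494 and 450.4 TPM in wild type. Vascular markers were higher for 3 of 5, with sums of 372, 396 and 246 TPM against 165, 119.6 and 142 TPM in wild type, and guard cell markers for 2 of 4, with sums of 90.8, 97.6 and 86.2 TPM against 74.2, 65.7 and 78.4 TPM. Mesophyll markers were lower for 2 of 4, with every ein3eil1 sum below every wild-type sum in air. Flower markers summed to 11.6, 0.99 and 44.5 TPM in ein3eil1 in air. The part of these marker shifts in the differences was not tested.

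Under water the mutants and wild type differed in fewer members that passed than in air. Many members were near 0 under water, where the added 1 TPM narrows differences, so fewer calls do not mean smaller ratios. In phyA-211, 10 of 39 were higher and 2 lower than in wild type, against 32.7% and 6.44% of all genes, with a median of 0.11 beside 0.29. That share of higher members is below the share over all genes, and after median centring 6 were higher and 6 lower, with a median of -0.35. PAP2 had the largest difference (2.34 ± 0.42, adjusted p = 0.00161), followed by CHS (1.5 ± 0.26) and 3AT2 (1.46 ± 0.22). The lower members were LBD39 (-1.77 ± 0.25) and MYB111 (-0.60 ± 0.22), the latter call lost under 7 alternatives. Without wild type submerged replicate 1, or without phyA-211 submerged replicate 2 or 3, 6 members were higher, and leaving out phyA-211 submerged replicate 3 or any submerged wild-type library left 1 lower. Mesophyll markers were lower than in submerged wild type for 3 of 4, and vascular markers higher for 2 of 5, with sums of 159, 278 and 323 TPM against 135, 137 and 139 TPM. The part of these in the differences was not tested.

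In submerged ein3eil1, 20 members were higher and 3 lower than in wild type, against 28.5% and 16% of all genes, with a median of 0.69 beside 0.19. Of these 23 calls, 16 held under every alternative run. The call for UGT78D1 was lost under 9 alternatives, 4CL1 under 7 and PAP1 under 3. UGT78D2 and 3AT1 were lost under 2 each, and 5MAT and C4H under 1 each. DFR averaged 62 TPM against 3.67 TPM in wild type (n = 3 each), a log2 difference of 3.74 ± 0.30 (adjusted p = 9.53e-08). LDOX (2.98 ± 0.33), CHS (2.55 ± 0.26), F3H (2.30 ± 0.28) and FLS1 (1.82 ± 0.43) followed. The repressors LBD38 (-1.91 ± 0.24), MYBL2 (-1.58 ± 0.27) and LBD39 (-1.46 ± 0.25) were lower. Every submerged ein3eil1 library was below every submerged wild-type library for these 3 repressors. The other repressor members, CPC and LBD37, did not pass. Of the 7 further repressors outside the members 3 were higher and 2 lower. Mesophyll markers were lower for 2 of 4 and vascular markers higher for 2 of 5, the vascular sums being 215, 271 and 257 TPM, and their part was not tested.

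**Figure D5:**
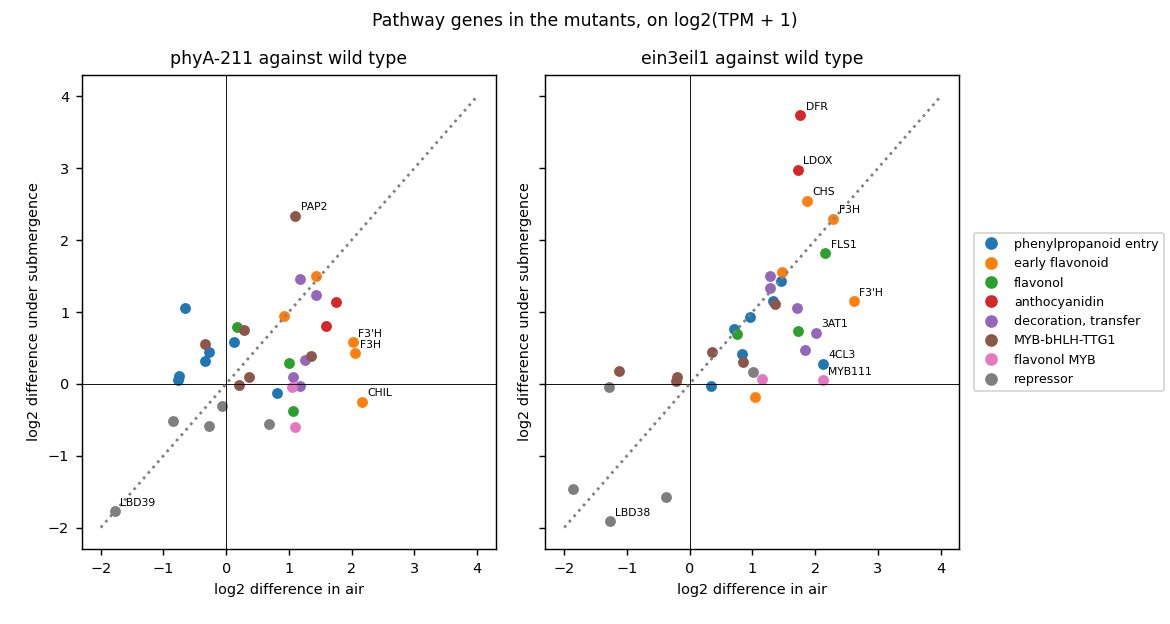
Log2 difference of each tested gene from wild type in air (horizontal) and under submergence (vertical), for phyA-211 on the left and ein3eil1 on the right, coloured by role, with the dotted line marking equal differences. Genes listed at 0 in a submerged group are left out; most genes lie right of 0, PAP2 stands apart in phyA-211, and DFR and LDOX stand highest in ein3eil1.

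Differences of response were tested directly. The response of phyA-211 was more negative than that of wild type for 10 members and more positive for 1, against 4.19% and 20.4% of all genes, and the member medians were -0.32 beside 0.35. C4H was the positive one, and the negative ones included CHIL (-2.42 ± 0.47), MYB111 (-1.69 ± 0.30) and F3H (-1.62 ± 0.39). Without phyA-211 submerged replicate 1 there were 6 positive members, and without phyA-211 submerged replicate 2 or 3 there were 5 negative ones, with 6 without wild type submerged replicate 1 or 3. Leaving out phyA-211 air replicate 1 gave 2 positive members. For genes at or near 0 under water in both lines, such as 5MAT, UGT79B1, MYB11 and PAP1, the difference of response is set by the air levels and the added 1 TPM.

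The response of ein3eil1 was more negative than that of wild type for 11 members and more positive for 2, against 16.6% and 10.8% of all genes. DFR (1.98 ± 0.42) and LBD37 (1.22 ± 0.32) were positive, and MYB111 (-2.07 ± 0.30) and 4CL3 (-1.84 ± 0.45) were the most negative. With a pseudocount of 0.1 TPM, 6 were positive and 6 negative. Of the negative ones, 5MAT, UGT79B1 and MYB11 were listed at 0 in submerged wild type. They averaged 0.757, 0.483 and 0.107 TPM in submerged ein3eil1. For these genes the difference of response is set by the air levels and the added 1 TPM. Between the mutants, the phyA-211 response was more negative than that of ein3eil1 for 9 members and more positive for 6, against 8.82% and 37.7% of all genes. DFR (-2.78 ± 0.42), CHIL (-2.51 ± 0.47) and LDOX (-1.86 ± 0.47) were the most negative, and C4H (1.75 ± 0.39), 4CL2 (1.29 ± 0.41) and CHI (1.25 ± 0.26) were positive. Without phyA-211 submerged replicate 1 there were 11 positive members.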

How the data were processed

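Polyadenylated leaf RNA was sequenced in 18 libraries. The authors deposited a single table of TPM values, genes by libraries. The unit is not stated in the sources used here and was inferred: the values have decimals, and library sums run from 996105 to 998620. The submitters' processing notes name fastp, cutadapt, HISAT2, DESeq2 and TAIR10, without versions or roles. Depth is unknown because TPM does not carry it, and no counting interval is given. Whether strand was kept is not stated, so a gene and an antisense partner may share reads.

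The 20302 genes that reached 1 TPM in 3 or more libraries were tested on log2(TPM + 1) with limma-trend and robust moderation (limma 3.58.1, R 4.3.3), all 18 libraries in 1 fit, a mean per group, no block, two-sided, with Benjamini-Hochberg adjustment over all genes tested and calls at an adjusted p under 0.05. The 10 comparisons were the effect of submergence (3 lines), the mutants against wild type (4, in air and under water) and the differences of response (3). A fold change on this scale understates that of low genes. An exact test of 3 libraries against 3 cannot go below 0.1. The fit was also tested on simulated data. The members and the gene lists were chosen with earlier results of these data known. All members may be named, with values in every library for the regulators and main enzymes, and from the other lists the PHYA, EIN3, EIL1 and ADH1 checks and the 2 called genes of smallest adjusted p in each pathway group and comparison. HY5, KFB50, HCT, F5H, CSE, C3'H and the phyA-211 value of CAD5 were chosen after their values were seen. Alternatives were a pseudocount of 0.1 TPM, no filter, median centring, quantile normalization, weights by group, the compared groups alone, a replicate block, and each library left out.

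Promoters were read from the TAIR10.1 genome with its own annotation, by locus tag. Coding identity is over aligned bases of the longest coding sequence. Protein features were not analysed here.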

Additional observations from a re-analysis of the deposited data

Results flagged for a closer look

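Differences of response that passed limma's adjusted p under 0.05 are given as values, 39 in all among the members. Each paragraph ends with the calls that were lost and the number of alternatives that lost them. The lines share their libraries between these comparisons, so the 3 sets are not independent of each other.

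Between phyA-211 and wild type, the response of C4H was more positive by 1.71 on the log2 scale. It was more negative for CHIL (-2.42), MYB111 (-1.69), F3H (-1.62), F3'H (-1.43), CPC (-1.24) and SCPL10 (-1.21). A further 4 passed in the negative direction where a submerged group was listed at 0, so the adjusted p is given in place of a size. These were 5MAT (adjusted p = 0.006), MYB11 (0.0256), UGT79B1 (0.0337) and PAP1 (0.0381). The PAP1 call was lost under 14 alternatives, UGT79B1 under 11, MYB11 and CPC under 7 each, and SCPL10 under 3.

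Between ein3eil1 and wild type, DFR (1.98) and LBD37 (1.22) had a more positive response. The response was more negative for MYB111 (-2.07), 4CL3 (-1.84), F3'H (-1.47), UGT75C1 (-1.37), 3AT1 (-1.30), CHI (-1.22), MYBL2 (-1.19) and UGT78D2 (-0.99). With wild type listed at 0 under water, 5MAT (adjusted p = 0.00292), UGT79B1 (0.00821) and MYB11 (0.0221) passed. The MYBL2 call was lost under 7 alternatives, MYB11 under 5, and 4CL3, UGT75C1 and UGT78D2 under 1 each. With a pseudocount of 0.1 TPM, 5MAT turned to 0.83 and UGT79B1 to 0.15, and neither passed.

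Between phyA-211 and ein3eil1, the phyA-211 response was more positive for C4H (1.75), 4CL2 (1.29), CHI (1.25), 3AT1 (1.1), PAL3 (1.03) and 3AT2 (0.94). It was more negative for DFR (-2.78), CHIL (-2.51), LDOX (-1.86), F3H (-1.64), MYB113 (-1.57), SCPL10 (-1.27), GSTF12 (-1.18), PAP1 (-0.93) and LBD37 (-0.91). The PAP1 call was lost under 13 alternatives, PAL3 under 12, MYB113 under 8, LBD37 under 7, 3AT2 under 6, 4CL2 under 5, 3AT1 under 2 and GSTF12 under 1.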

How the results depend on the processing

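Of 232 called member results, 62 lost the call under at least 1 alternative with the sign kept. The other 170 kept the call under every alternative run, except 2 that reversed sign. These were 5MAT and UGT79B1 in the response of ein3eil1 against wild type, with a pseudocount of 0.1 TPM. Neither then passed (limma adjusted p = 0.102 and 0.886). These 2 aside, single alternatives lost 18 (pseudocount of 0.1 TPM), 7 (no filter), 32 (median centring), 25 (quantile normalization), 16 (weights by group), 23 (compared groups alone) and 43 (some library left out). The causes were not tested. Submergence calls were the steadiest, with 31 of 32 kept in wild type, 32 of 34 in phyA-211 and 33 of 39 in ein3eil1. In 0 of 15 pairs of groups were all 3 correlations of same-numbered libraries over 0.1, and they ranged from -0.375 to 0.438. Between phyA-211 in air and phyA-211 under water they were 0.438, 0.201 and 0.090. Such a cutoff cannot exclude that the replicate numbers pair libraries. With a replicate block 7 calls were lost. The counts became 18 higher for phyA-211 in air, 27 higher and 3 lower for ein3eil1 in air, and 19 higher for submerged ein3eil1. They became 31 lower for submergence in phyA-211 and 8 negative for the response of phyA-211 against ein3eil1. Submergence in ein3eil1 stayed at 36 lower.

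In wild type 4 members rose after median centring and with the compared groups alone. For phyA-211 in air 2 members were lower with median centring, quantile normalization, weights and the compared groups alone. For submerged phyA-211 against wild type, each of these 4 gave 6 higher, and 6, 4, 1 and 1 were lower in that order, the centred median being -0.35. For ein3eil1 in air 19 were higher after centring. Between the responses of phyA-211 and wild type there were 2 positive members with weights, 17 negative after centring and 6 negative with the compared groups alone. Between those of ein3eil1 and wild type there were 6 positive and 6 negative members and a median of 0.05 with a pseudocount of 0.1 TPM, where 5MAT turned to 0.83 and UGT79B1 to 0.15. For phyA-211 against ein3eil1, 2 were positive with centring or quantile normalization and 3 with weights, 5 negative with weights, and the median turned to -0.21 (pseudocount), -0.32 (centring) and -0.18 (quantile).

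With 1 library left out, members called ranged from 12 to 21 higher and 1 to 2 lower for phyA-211 in air, and from 6 to 14 higher and 1 to 3 lower for phyA-211 under submergence. The response of phyA-211 against wild type ranged from 1 to 6 positive and 5 to 13 negative, and that against ein3eil1 from 4 to 11 positive and 6 to 9 negative. TPM keeps no depth, so the precision of members near 0 is unknown.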
